A study of Mus musculus with 4 samples.

Results

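The genes described here are 10 macrophage identity genes, leaving out class II and complement genes: Csf1r, Cx3cr1, Mrc1, Cd163, Cd68, Adgre1, Lyz2, Fcgr3, Tyrobp and Ptprc. They were taken by exact symbol from the 55401 rows of each deposited table, and each symbol matched 1 row in every table. The tables hold 4 poly(A) RNA libraries from testes of C57BL/6J mice at postnatal day 14. Of these, 2 came from Kctd19-/- mice (ko) and 2 from Kctd19+/- mice (het), with no treatment in either group, and the het mice carry the mutant allele as well. The replicates are biological per the series' description, which does not say whether each library is 1 animal, and the comparison asks which testis transcripts differ when both copies of Kctd19 are mutated. RNA came from whole testis tissue, so fewer cells of a type and less RNA per cell cannot be told apart in any value below.

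Macrophages are the main resident immune cells of the testis. They depend on the receptor Csf1r for survival, take up dead cells and debris through scavenger and Fc receptors, and digest them in lysosomes. In the adult mouse testis, an interstitial population rich in Csf1r and Mrc1 and low in class II lies among the Leydig cells. A second population, rich in class II, lies along the outer wall of the tubules.

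Assigned reads, recovered from the steps of the deposited FPKM values (fragments per kilobase of exon, relative to the assigned reads), were 19430364 and 14573566 in the ko libraries and 14638658 and 12155089 in the het libraries. Kctd19 itself stood at 12.8 and 15.6 FPKM in the ko libraries and at 29.7 and 18.2 FPKM in the het libraries, so its RNA remained in ko. FPKM counts every exon together and cannot check a mutation that keeps the transcript. The labelled tissue was matched by its markers: the Sertoli cell gene Wt1 stood at 44.2 and 37.4 FPKM in ko and 33.6 and 37.4 FPKM in het, and the germ cell gene Ddx4 at 74.2 and 74.7 FPKM in ko and 118 and 91.1 FPKM in het. Limma on log2(FPKM + 1) called 39 of 17905 tested genes at a Benjamini-Hochberg adjusted p under 0.05 (0.218%), of which 37 were higher in ko (0.207%) and 2 lower, and called 0 genes when any 1 of the 4 libraries was left out. A gene was tested when its mean over the 4 libraries was at least 1 FPKM, which 8 of the 10 identity genes met. Cd163 and Ptprc did not.

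RefSeq promoter windows (GRCm38.p6, 250 bases before to 50 after a start) were given for 7 of the 10 genes, in 9 windows, and 3 are shown to place the sequence beside the levels. They are the upstream 250 bases of Mrc1, whose ko and het levels overlapped, of Fcgr3, whose levels did not, and of Lyz2, the gene with the highest level. Capitals mark matches, on either strand, to the PU box GAGGAA, the core that the macrophage lineage factor PU.1 (Spi1) binds.

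Mrc1 (chr2:14229164-14229413, plus strand): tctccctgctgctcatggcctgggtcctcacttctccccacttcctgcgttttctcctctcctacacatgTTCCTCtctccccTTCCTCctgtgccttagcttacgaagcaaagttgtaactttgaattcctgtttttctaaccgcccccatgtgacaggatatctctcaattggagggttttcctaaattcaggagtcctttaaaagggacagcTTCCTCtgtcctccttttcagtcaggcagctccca
Fcgr3 (chr1:171059404-171059653, minus strand): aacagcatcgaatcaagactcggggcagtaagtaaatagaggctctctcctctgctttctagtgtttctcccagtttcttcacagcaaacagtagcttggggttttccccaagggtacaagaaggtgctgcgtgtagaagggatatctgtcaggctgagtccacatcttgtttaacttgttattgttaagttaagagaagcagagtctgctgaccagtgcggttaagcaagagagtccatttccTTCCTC
Lyz2 (chr10:117282273-117282522, minus strand): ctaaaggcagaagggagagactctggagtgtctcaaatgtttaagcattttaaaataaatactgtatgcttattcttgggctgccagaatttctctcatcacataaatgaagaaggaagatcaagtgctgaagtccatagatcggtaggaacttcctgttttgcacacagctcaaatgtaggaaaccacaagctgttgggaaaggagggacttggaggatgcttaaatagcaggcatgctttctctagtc

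The Mrc1 stretch holds 3 PU boxes, beginning 180, 167 and 35 bases before the start, the Fcgr3 stretch holds 1 beginning 6 bases before it, and the Lyz2 stretch holds none. Over the full windows, the PU box was in 5 of the 9 windows, from 4 genes (Cd68, Fcgr3, Mrc1 and Ptprc), against 28.3% of all 32851 windows in the table. Both Fcgr3 windows overlap and hold the same box. Counted by gene, it was in 4 of 7, against 31.3% of 27025 genes. The TATA box TATAAA was in 1 window, of Ptprc, against 13.6% of all windows. The letters of the interferon-stimulated element, GAAANNGAA, and of the gamma-activated site, TTCNNNGAA, were in none of the 9 windows, against 8.6% and 8.3% of all windows. Both strands were searched in each case, and a match or its absence describes only the letters of these windows.

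Among the 10 genes, 9 had both ko libraries above both het libraries, and Mrc1 overlapped. The differences ran from about equal means for Mrc1 to a ko over het ratio of 2.20 for Tyrobp and 2.29 for Ptprc. Limma called 0 of the 8 tested genes, although 5 were higher in ko at an unadjusted p under 0.05, a mark that 4.90% of all tested genes met. Voom, limma's test for counts, run on the recovered whole reads, called 2 of the same 8 higher, Lyz2 and Tyrobp, against 0.768% of the 17445 genes it tested. Of the 8 tested genes, 7 had both ko libraries above both het libraries, against 22.1% of all tested genes. Their median log2 fold change was 0.47, against 0.01 over all tested genes.

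**Figure D1:**
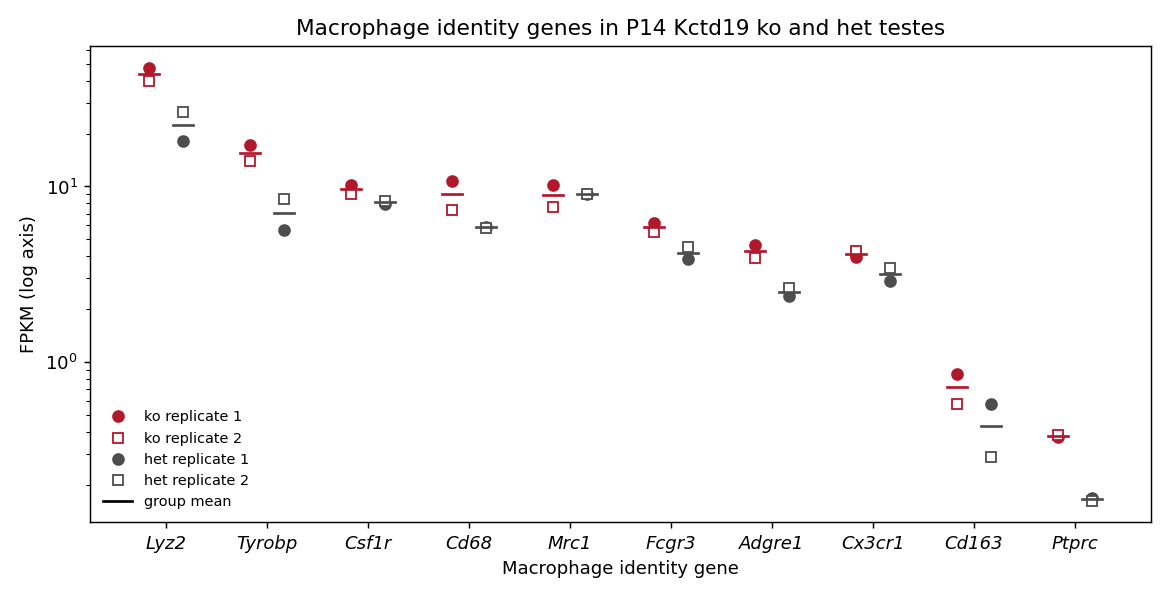
FPKM (log axis) of each macrophage identity gene in the 2 ko libraries (red, left) and the 2 het libraries (grey, right), with filled circles for replicate 1, open squares for replicate 2 and a short bar for the group mean. Lyz2, Tyrobp and Ptprc lie higher in both ko libraries, Mrc1 overlaps, and Cd163 and Ptprc lie below 1 FPKM in every library. Limma called 0 of the 8 tested genes.

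The receptors for growth factor and chemokine had small differences between the groups. Csf1r, the receptor for the growth factors Csf1 and Il34 (chromosome 18, 61100598 to 61132149), stood at 10.2 and 9.07 FPKM in ko and at 7.99 and 8.31 FPKM in het, from 583 to 1139 reads. The groups did not overlap, but the means differed by a ratio of 1.18 (9.61 ± 0.767 in ko and 8.15 ± 0.227 in het, SD, n = 2 each). On the log2(FPKM + 1) scale the difference was 0.21 (SE 0.10) and did not pass (limma, Benjamini-Hochberg adjusted p = 0.584). Cx3cr1, the receptor for the membrane-bound chemokine Cx3cl1 (chromosome 9, 119901616 to 120069879), stood at 3.94 and 4.3 FPKM in ko and at 2.91 and 3.45 FPKM in het. Its 4 ko over het pairs had ratios of 1.14 to 1.48, and it did not pass either (log2 fold change 0.29 with an SE of 0.13 and a limma Benjamini-Hochberg adjusted p of 0.567). An exon of Csf1r overlaps one of Hmgxb3 on the opposite strand, and reads in such an overlap cannot be told apart where strand was not used in counting.

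The ligands of these receptors were present in both groups. Csf1 stood at 7.04 and 6.54 FPKM in ko and at 6.23 and 5.86 FPKM in het, and Cx3cl1 at 8.77 and 8.17 FPKM in ko and 7.87 and 6.87 FPKM in het. Neither passed (limma, Benjamini-Hochberg adjusted p = 0.688 and 0.650). Il34 rested on 20 and 19 reads in ko and 9 and 21 reads in het and was below the filter. Spi1, which encodes PU.1, stood at 2.41 and 1.53 FPKM in ko and at 1.29 and 1.10 FPKM in het (limma, Benjamini-Hochberg adjusted p = 0.624).

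Mrc1 and Cd163 are scavenger receptors of resident macrophages. Mrc1, the mannose receptor CD206 (chromosome 2, 14229392 to 14332057), stood at 10.2 and 7.63 FPKM in ko and at 9.01 and 9.05 FPKM in het, from 701 to 1265 reads. The het libraries lay between the ko libraries. Its log2 fold change was -0.03 (SE 0.15, adjusted p = 0.967 by limma and Benjamini-Hochberg). Without ko replicate 2 it was 0.16 and without ko replicate 1 it was -0.22, so 1 library sets its sign. Cd163, the receptor for haemoglobin bound to haptoglobin (chromosome 6, 124304656 to 124330527), had 91 and 46 reads in ko and 46 and 19 reads in het. That is 0.858 and 0.578 FPKM in ko against 0.575 and 0.286 FPKM in het, and ko replicate 2 and het replicate 1 had 46 reads each at like depth. In a voom fit of genes with 10 or more reads in at least 2 libraries, which lets in both genes below the FPKM filter, its log2 fold change was 0.77 (SE 0.38, Benjamini-Hochberg adjusted p = 0.517).

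Adgre1, which encodes F4/80, an adhesion receptor used to stain mouse macrophages (chromosome 17, 57358691 to 57483527), stood at 4.61 and 3.92 FPKM in ko and at 2.36 and 2.64 FPKM in het. The groups were apart, with 290 and 185 reads in ko and 112 and 104 reads in het, and the 4 ko over het pairs had ratios of 1.48 to 1.95. The log2 fold change was 0.59 on FPKM (SE 0.13, adjusted p = 0.373 by limma and Benjamini-Hochberg) and 0.78 on whole reads (SE 0.19, adjusted p = 0.0804 by voom and Benjamini-Hochberg), and passed in neither.

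Lyz2 and Cd68 encode proteins of the phagocyte's granules and lysosomes. Lyz2, the lysozyme of mouse macrophages and other myeloid cells (chromosome 10, 117277331 to 117282321), had the highest level of the 10 genes in every library. It stood at 47.6 and 40.1 FPKM in ko and at 18.1 and 26.6 FPKM in het. The ko libraries lay above both het libraries, and the het libraries differed from each other, so the 4 pairs had ratios of 1.51 to 2.64. On the log2(FPKM + 1) scale the fold change was 0.96 (SE 0.20, adjusted p = 0.368 by limma and Benjamini-Hochberg). On whole reads it was 1.02 (SE 0.16), which passed (voom, Benjamini-Hochberg adjusted p = 0.00596). Of the 50-base windows of its longest coding transcript, 15.4% are shared with its near copy Lyz1, which had 9 and 16 reads in ko and 6 and 6 reads in het, so a few reads may be misplaced between the 2 genes.

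Cd68, a glycoprotein of the lysosome membrane (chromosome 11, 69664213 to 69666153), stood at 10.8 and 7.31 FPKM in ko and at 5.87 and 5.83 FPKM in het. The het libraries were almost level and both ko libraries were higher, ko replicate 1 by more. Its log2 fold change of 0.53 (SE 0.19) did not pass (limma, Benjamini-Hochberg adjusted p = 0.518), and it was 0.28 without ko replicate 1 and 0.79 without ko replicate 2.

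Fcgr3 and Tyrobp belong to the signalling apparatus of phagocytes. Fcgr3, a receptor for immunoglobulin G (chromosome 1, 171051174 to 171064935), stood at 6.2 and 5.53 FPKM in ko and at 3.86 and 4.5 FPKM in het. Its groups were apart, with a log2 fold change of 0.41 (SE 0.12) that did not pass (limma, Benjamini-Hochberg adjusted p = 0.472). It shares 12.8% of its 50-base windows with Fcgr2b, the inhibitory receptor, and the split of those reads is uncertain. Tyrobp (chromosome 7, 30413760 to 30417585), also called DAP12, is the adaptor that carries signals of Trem2 in macrophages and of activating receptors in natural killer cells. It stood at 17.3 and 13.9 FPKM in ko and at 5.63 and 8.51 FPKM in het, from 224 and 135 reads in ko and 55 and 69 reads in het. Both ko libraries were above both het libraries, by ratios of 1.63 to 3.07 over the 4 pairs. Its log2 fold change was 1.05 (SE 0.21), with a limma Benjamini-Hochberg adjusted p of 0.338. On whole reads it was 1.20 (SE 0.26) and passed (voom, Benjamini-Hochberg adjusted p = 0.0394).

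Partners of these molecules were not called by limma or voom. Fcer1g, the adaptor that Fcgr3 signals through, stood at 16.4 and 11.4 FPKM in ko and at 6.33 and 8.38 FPKM in het. It showed a log2 fold change of 0.83 (SE 0.21, adjusted p = 0.425 by limma and Benjamini-Hochberg). Syk, the kinase recruited by both adaptors, stood at 1.33 and 1.23 FPKM in ko and at 1.16 and 1.19 FPKM in het. Trem2 had 61 and 40 reads in ko and 36 and 29 reads in het and was below the filter.

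Ptprc, the phosphatase CD45 found on all nucleated blood cells (chromosome 1, 138062861 to 138175708), had 132 and 102 reads in ko and 45 and 36 reads in het. That is 0.371 and 0.382 FPKM in ko against 0.168 and 0.162 FPKM in het, with the libraries of each group close to each other. In the voom fit that lets it in, which was chosen after seeing the data, its log2 fold change was 1.18 (SE 0.27). That passed narrowly (voom, Benjamini-Hochberg adjusted p = 0.0476). Limma with no filter, on a scale that understates low genes, gave 0.24 (SE 0.09, Benjamini-Hochberg adjusted p = 0.707). The voom fit called 3 of the 10 genes higher, Lyz2, Tyrobp and Ptprc, against 0.787% of the 20340 genes it tested. The low FPKM of Ptprc depends on the length it was divided by: the exons of all its annotated transcripts span 18313 bases, 3.61 times its longest coding transcript. Divided by that transcript's 5074 bases, its levels would be 1.34 and 1.38 FPKM in ko and 0.606 and 0.584 FPKM in het.

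The order of levels depends on the length used, here that of all annotated exons. Divided by the longest coding transcript, Ptprc in ko (1.34 and 1.38 FPKM) would lie above Cd163 (1.05 and 0.71 FPKM). In order of level per length of all annotated exons, the ko means ran Lyz2, Tyrobp, Csf1r, Cd68, Mrc1, Fcgr3, Adgre1, Cx3cr1, Cd163 and Ptprc. In that order Csf1r and Cd68, Cd68 and Mrc1, and Adgre1 and Cx3cr1 were neighbours whose library values overlapped. The het means ran Lyz2, Mrc1, Csf1r, Tyrobp, Cd68, Fcgr3, Cx3cr1, Adgre1, Cd163 and Ptprc, with overlap between Csf1r and Tyrobp and between Tyrobp and Cd68. Tyrobp thus had rank 2 in ko and rank 4 in het. The 10 genes summed to 112 and 92.8 FPKM in ko and 56.4 and 69.4 FPKM in het, and Lyz2 alone gave 42.5% and 43.3% of that sum in ko and 32% and 38.4% in het. Of the 10 genes, 8 were higher in ko replicate 1 than in ko replicate 2.

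Set against Csf1r in the same library, the other genes kept different distances. Tyrobp was 1.70 and 1.53 times Csf1r in ko and 0.705 and 1.02 times in het, and Lyz2 was 4.69 and 4.43 times Csf1r in ko and 2.26 and 3.21 times in het. Adgre1 was 0.454 and 0.432 times Csf1r in ko and 0.296 and 0.318 times in het. The Cx3cr1 ratio overlapped between the groups, and the Mrc1 ratio was below het in both ko libraries, at 1.01 and 0.841 in ko and 1.13 and 1.09 in het. Of the 9 ratios, 6 had the ko libraries above the het libraries, 1 had them below and 2 overlapped. Among the 17905 tested genes, the share with a ratio to Csf1r higher in both ko libraries was 4.62%. Ptprc, among the 6, was not a tested gene, and the share with a lower ratio was not counted. Csf1r itself had a ko over het ratio of 1.18, which lowers every ratio in ko. A gene of about equal means, such as Mrc1, thereby tends to fall below het. All 9 ratios share 1 denominator and are given as a description, since an exact two-sided permutation test of 2 libraries against 2 cannot give a p below 0.333.

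**Figure D2:**
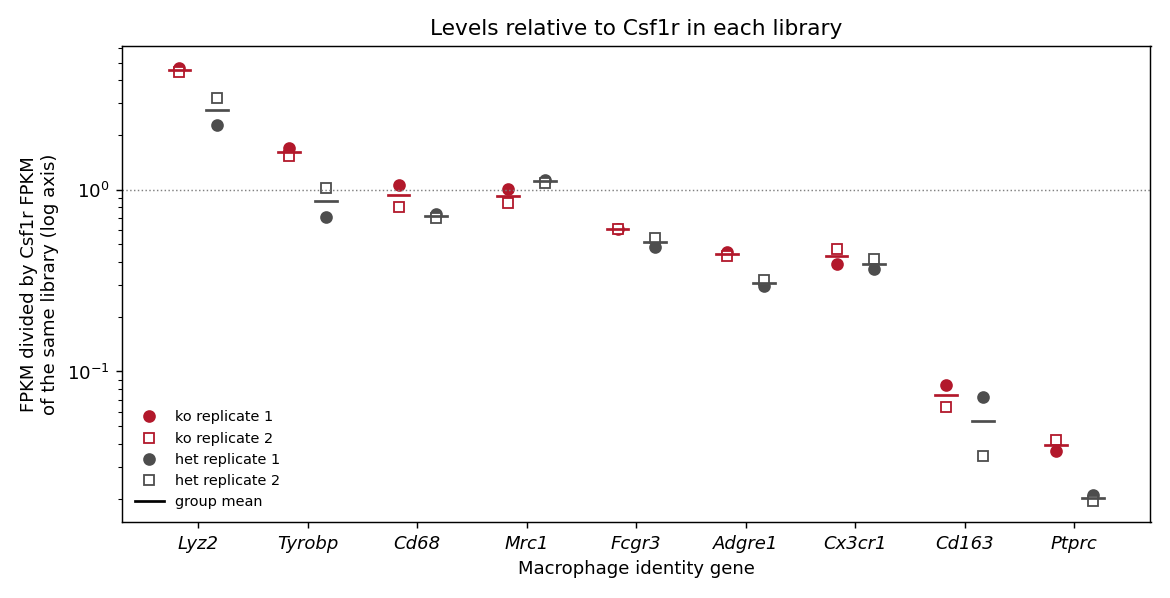
FPKM of each other macrophage identity gene divided by the FPKM of Csf1r in the same library (log axis), for the 2 ko libraries (red, left) and the 2 het libraries (grey, right). Short bars are group means, and the dotted line at 1 marks a level equal to Csf1r. Tyrobp lies above the line in both ko libraries, and Mrc1 is the gene whose ko ratios both lie below its het ratios.

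A wider list of 44 genes of macrophages, their ligands and their signalling was read from the same fit. Of these, 24 were tested, limma called 0, and 10 were higher in ko at an unadjusted p under 0.05, against 4.90% of all tested genes. By contrast, 4 were called higher and 0 lower by voom on whole reads, against 0.768% of all genes in that fit called higher. Their median log2 fold change was 0.33, with a range of -0.17 to 1.58, and 17 had both ko libraries above both het libraries, against 22.1% of all tested genes. Ctss, a lysosomal protease that also trims the class II invariant chain, stood at 25.1 and 17.5 FPKM in ko and at 6.54 and 6.18 FPKM in het (log2 fold change 1.58 with an SE of 0.18 and a limma Benjamini-Hochberg adjusted p of 0.121). Voom called it (Benjamini-Hochberg adjusted p = 0.000914), together with Aif1, Fcgr1 and Coro1a (0.0137, 0.0088 and 0.0257).

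Aif1, the actin-binding protein Iba1, stood at 7.39 and 6.40 FPKM in ko and at 2.85 and 2.74 FPKM in het. Fcgr1, the high-affinity receptor for immunoglobulin G, stood at 2.84 and 2.09 FPKM in ko and at 0.475 and 0.508 FPKM in het. Coro1a, an actin-binding protein of leukocytes, stood at 6.07 and 4.73 FPKM in ko and at 2.85 and 2.19 FPKM in het. In these 3 genes the groups did not overlap. Laptm5 and Timd4, the last 2 named by smallest p, had log2 fold changes of 0.56 and 0.68 (limma, Benjamini-Hochberg adjusted p = 0.407 and 0.505).

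Low genes of the list were reached by the wider voom fit, which called 7 of its 39 tested members higher, against 0.787% of all genes in that fit. Fcgr4, an activating Fc receptor named here after its values were seen, had 45 and 12 reads in ko and 0 in both het libraries, at least 6.95-fold higher in ko when each het library is set at 3 reads. Siglec1 and Cybb, also named after their values were seen, were the other 2 calls. Siglec1, the sialic acid receptor of macrophages, had 129 and 86 reads in ko and 17 and 25 in het. Cybb, a subunit of the phagocyte oxidase, had 195 and 107 reads in ko and 55 and 48 in het.

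**Figure D3:**
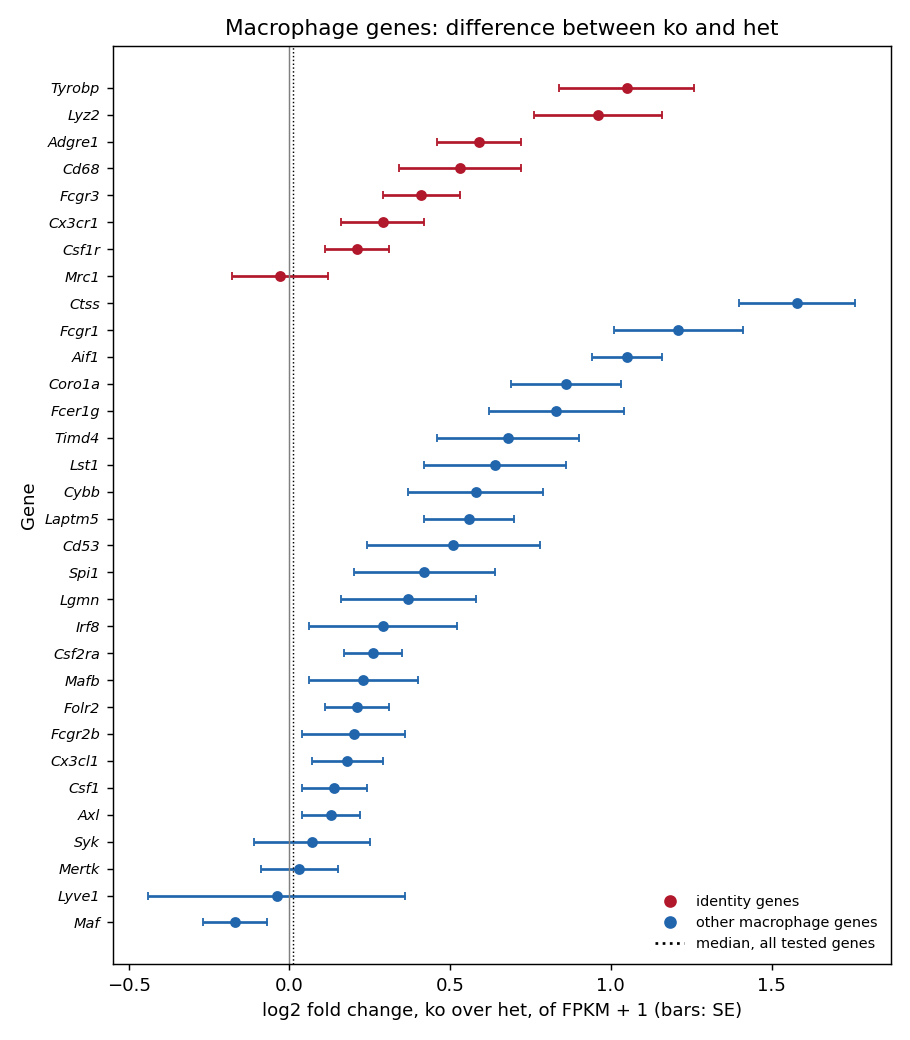
Log2 fold change of FPKM + 1, ko over het, with its SE from limma, for the 8 tested macrophage identity genes (red) and the 24 tested genes of the wider macrophage list (blue). The dotted line is the median of all tested genes. Mrc1 lies at -0.03 and Tyrobp at 1.05 among the identity genes, and Ctss at 1.58 among the others.

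Other immune gene groups differed in the same libraries. The 4 class II genes, all tested, had a median log2 fold change of 2.72 and the 3 complement C1q genes 1.31. Limma called 3 and 1 of them higher, against 0.207% of all tested genes. Cd74 stood at 50.6 and 37.4 FPKM in ko and at 4.15 and 3.87 FPKM in het, and C1qb at 46.5 and 39.9 FPKM in ko and 16.6 and 16.1 FPKM in het. All 12 tested genes of a 14-gene interferon response list had both ko libraries above both het libraries, against 22.1% of all tested genes. Their median was 1.86, and limma called 7 of them higher, against the same 0.207%. Gbp2, an interferon-inducible GTPase, stood at 17.0 and 16.6 FPKM in ko and at 1.98 and 1.63 FPKM in het. None of these limma calls held with any 1 library left out, while voom on whole reads called all 19 tested genes of the 3 lists. Of all genes in that voom fit, 0.768% were called higher. The part of these immune gene groups in the levels of the identity genes was not tested.

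**Figure D4:**
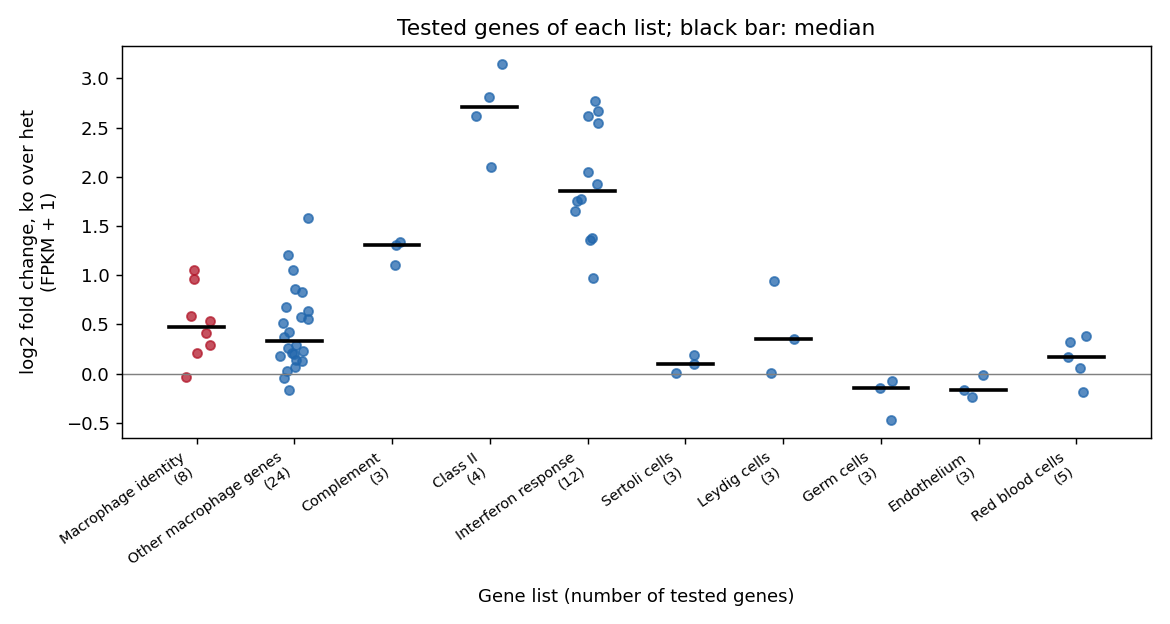
Log2 fold change of FPKM + 1, ko over het, of every tested gene in each list, with the number tested in brackets and the median as a black bar. The macrophage identity genes (red) have a median of 0.47, below the medians of complement (1.31), class II (2.72) and interferon response genes (1.86).

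Markers of other leukocytes, some of which share Ptprc, Tyrobp, Lyz2 or Fcgr3 with macrophages, were low in reads for most genes. Read sums here are not scaled to depth. The 4 natural killer markers summed to 35 and 33 reads in ko and 1 and 8 reads in het, none at 0 in every library. All 4 had both ko libraries above both het libraries in FPKM, against 22.1% of all tested genes. All were below the FPKM filter, so that share does not cover genes this low, for which none was counted. The wider voom fit tested 1 of the natural killer markers and called 0. The 8 T cell markers summed to 319 and 250 reads in ko and 194 and 144 in het, and the 3 tested ones were not called (Cd3e at 0.984 and 1.43 FPKM in ko and 1.36 and 0.847 FPKM in het, Lck at 1.30 and 1.10 FPKM in ko and 0.863 and 1.10 FPKM in het). Of all 8, 5 had both ko libraries above both het libraries and 0 had them below. Among them, Cd3g, below the filter, had 25 and 15 reads in ko and 3 and 4 in het. The wider voom fit called 0 of the 6 T cell markers it tested. The 4 B cell markers summed to 25 and 32 reads in ko and 17 and 13 in het. The 6 neutrophil markers summed to 6 and 7 reads in ko and 6 and 6 in het, with Elane at 0 in every library. The 4 mast cell markers summed to 23 and 11 reads in ko and 16 and 22 in het, with Fcer1a at 0 in every library. The 4 monocyte markers summed to 550 and 384 reads in ko and 151 and 129 in het. Of them, Plac8 was the 1 tested and was called higher, against 0.207% of all tested genes. It stood at 14.8 and 13.8 FPKM in ko and at 3.95 and 4.29 FPKM in het (log2 fold change 1.58 with an SE of 0.09 and adjusted p = 0.0238 by limma and Benjamini-Hochberg), a call lost with any 1 library left out. Of the 6 dendritic cell markers, Zbtb46 stood at 4.66 and 4.71 FPKM in ko and at 4.47 and 5.18 FPKM in het, and the other 5 summed to 1.48 and 0.956 FPKM in ko and 1.18 and 1.33 FPKM in het.

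Blood and other tissue cells were read beside the same genes. The 5 red blood cell genes summed to 62.2 and 73.6 FPKM in ko and 77.9 and 41.5 FPKM in het, so the groups overlapped. The endothelial gene Cdh5 stood at 7.51 and 7.09 FPKM in ko and at 8.52 and 9.02 FPKM in het, and the Leydig cell gene Insl3 at 105 and 64.9 FPKM in ko and 54.7 and 76.1 FPKM in het. Cyp17a1, a steroid-making enzyme of Leydig cells, stood at 16.7 and 22.1 FPKM in ko and at 27.6 and 2.85 FPKM in het, so het replicate 2 lay far below the other 3 libraries in this gene. Limma called 0 of the 17 tested genes of the Sertoli, Leydig, germ cell, endothelial and red blood cell lists, and voom on the whole reads called 0 as well. Below an unadjusted p of 0.05, limma placed 2 of them lower and 0 higher in ko. The part of cell composition in the identity genes' levels was not tested.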

How the data were processed

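The authors deposited 1 table per library with 1 FPKM value per gene symbol, per the file headers. The submitters' processing notes name, with no role, the build GRCm38 and the tools STAR 2.6.1a, CASAVA 1.9, edgeR and featureCounts. Neither the annotation release nor the strand setting is given in the sources used here.

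Symbols were matched to GENCODE M21 (GRCm38) for exon length, and 53171 rows (96.0%) matched. FPKM times exon length moved in whole reads: 99.1% or more of values up to 20 reads in each library, and all 40 values of the identity genes, were whole within 0.02. Genes averaging at least 1 FPKM were fitted by genotype on log2(FPKM + 1) in limma 3.58.1 (R 4.3.3) with an intensity trend, and p-values were adjusted over all of them by the Benjamini-Hochberg method. This scale understates the change of low genes. Voom on the recovered reads was an alternative, and its version with a minimum of 10 reads in 2 libraries was chosen after seeing the data. Other alternatives were median-of-ratios scaling, quantile normalization, each library left out in turn, a block for the replicate number, a pseudocount of 0.1 and no filter on low values. Chi-square per gene was 6.28 between the het libraries and 19.6 between the ko libraries, so each counted as its own sample. The code was tested on simulated reads.

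The members and lists were chosen with earlier results of these data known. Named genes were the 10 members, fixed ligands and partners, up to 6 others of the wider macrophage list by smallest p, up to 3 interferon genes, and up to 2 genes from each remaining list together with markers at 0. Protein sequences were not used here.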

Additional observations from a re-analysis of the deposited data

How the results depend on the processing

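Limma called 39 genes over all tested, 0 of the 8 tested identity genes and 0 of the 24 tested genes of the wider macrophage list. Leaving out 1 library gave 0 calls each time, for all genes and for both lists, and no filter gave 0 as well. With 1 library left out, the median log2 fold change of the 8 identity genes was 0.34 to 0.58. With no filter, 6 of the 10 identity genes were higher in ko at an unadjusted limma p under 0.05, against 1434 of 37429 genes. With the replicate number as a block (replicate block), 15 genes were called and none of either list. The numbers were not taken as pairing the libraries, since the het and ko replicate differences correlated at -0.0342 over the tested genes. Voom on whole reads called 240 genes, 2 identity genes and 4 of the wider list, and with a minimum of 10 reads in 2 libraries it called 304, 3 and 7; the cause was not tested. With 2 libraries in each group, no filter and the replicate block cannot move a gene's fold change. With their values counted in, the log2 fold changes of the 8 identity genes kept their sign in 87 of 88 alternative values. The exception was Mrc1, which ranged from -0.22 to 0.16 when 1 library was left out, above 0 without ko replicate 2. Among the other named genes, Cd3e ranged from -0.10 to 0.25, below 0 when het replicate 2 or ko replicate 2 was left out. Hbb-bs ranged from -0.08 to 0.71, below 0 when het replicate 2 was left out. With het replicate 2 left out Cyp17a1 also turned below 0 (range -0.50 to 2.39) and Zbtb46 above 0 (range -0.12 to 0.05). Cd163 and Ptprc rest on 19 to 132 reads a library, which limits their precision.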
